A study of Homo sapiens with 6 samples.

Results

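The genes described here build ribosomes or transcribe ribosomal and transfer RNA. They were measured by RNA sequencing in Kasumi-1 cells, an established acute myeloid leukaemia line with the t(8;21) translocation that joins RUNX1 to RUNX1T1. SETD8 knockout cells (3 libraries), in which CRISPR/Cas9 was directed at the histone H4 lysine methyltransferase now named KMT5A, were compared with sgNT cells (3 libraries), which carried a non-targeting guide and are called control cells. The Kasumi-1 background and culture medium were shared by both groups. Not given in the sources used here were the guide sequence, the clonality of the cells and the time between editing and harvest. Members were the protein-coding genes of the deposited table whose symbols begin with or equal a set of names: NOP, NOL, UTP, RRP, POLR1, POLR3, RRN3, numbered NOC genes, 4 WDR genes, BOP1, NCL, NPM1, NPM3, FBL, DKC1, GAR1, NHP2, IMP3, IMP4, MPHOSPH10, BYSL and NIP7. Of the 7983 genes in the table, 52 met this rule. A further 22 protein-coding genes of GENCODE release 29 have a matching name but were not in the table, among them POLR1D, POLR1E, POLR3C, POLR3GL, NOP14 and MPHOSPH10, and were not analysed here.

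RNA polymerase I transcribes the long precursor of most ribosomal RNA in the nucleolus, and RNA polymerase III makes the smallest ribosomal RNA and the transfer RNAs. The precursor is folded, chemically modified and cleaved while large assemblies, the small subunit processome and the particles that become the large subunit, form around it. Small nucleolar ribonucleoproteins (snoRNPs) guide most of the modifications. In many cell types MYC, a transcription factor that binds E-box sequences, is known to drive genes of all these steps.

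The authors' deposited table listed only genes with a nominal p-value up to 0.049998. The members are thus genes already chosen for differing between the groups, and genes outside the list cannot be called stable. Reads in listed genes ran from 12557974 in knockout library 3 to 10966349 in control library 1. The labels do not say whether numbered libraries were separate cultures or guides, so p-values rest on the spread among these samples, and that spread may be technical. KMT5A itself (ENSG00000183955, chromosome 12, 123383773 to 123409358) had normalised read counts of 879.7, 933 and 939 in the knockout libraries, against 1191, 1212 and 1255 in the control libraries. Its transcript was lower in every knockout library but most of it was still present (log2 fold change -0.41, SE 0.07, limma-trend adjusted p = 5.65e-05). All 5 markers written for this leukaemia line were listed with reads in all libraries: RUNX1T1, CD34, KIT, MPO and CD33. They also differed between the groups. MPO, a granule enzyme of myeloid cells, read 1515 to 1569.7 in knockout libraries and 11862 to 12604 in control libraries. KIT read 42774 to 44359 in knockout libraries and 59706 to 61609.5 in control libraries, and CD33 read 951 to 1020.4 in knockout libraries and 374 to 474 in control libraries. CD34 read 7722 to 7883 in knockout libraries and 6851 to 7410 in control libraries. RUNX1T1 read 2911 to 3134 in knockout libraries and 2674 to 2809 in control libraries. MPO and KIT were thus lower, and CD33, CD34 and RUNX1T1 higher, in all knockout libraries. Of the markers of other cell types reported here, CD3E, MS4A1, HBA1, HBB, COL1A1 and COL1A2 had no row and were not analysed here. The T cell gene CD3D read 1254 to 1515 in knockout libraries and 1015 to 1059 in control libraries. It was higher in every knockout library, and the part of these marker differences in the results on the members was not tested.

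Most members were higher in SETD8 knockout cells, by modest amounts. Of 52 members, 51 had a mean normalised count of at least 10 and were tested. By limma-trend on log2(value + 1), at adjusted p below 0.05, 36 were higher (70.6%), 11 were lower (21.6%) and 4 were not called. Among all 7516 tested genes, 47.3% were called higher, 46.7% lower and 94.1% in either direction, so a call in itself is no mark of these genes and the direction carries more information. The members' median log2 fold change was 0.32 (knockout over control), against 0.14 over all tested genes. The members' changes were small in size, with a median of 0.42 on the log2 scale against 0.52 over all tested genes. Only NOP16 changed over 2-fold among the members (1.96%), whereas 19.5% of all tested genes did. The members were also more abundant, with a median of their mean normalised counts of 1075, against 677 over all tested genes. The part of level, and of the listing by p-value, in these sizes was not tested. Values of the knockout and control libraries did not overlap for 37 members that were higher and 12 that were lower, where the shares over all tested genes were 48.0% and 47.4% (95.4% in either direction). NPM1 and NOL7 were the members whose groups overlapped. Expressed as a share of reads in listed genes, the 52 members took 1.01%, 1.05% and 1.01% in the knockout libraries, against 0.940%, 0.904% and 0.913% in the control libraries. Of the 51 tested members, 18 overlap a protein-coding gene on the opposite strand, among them POLR1C, POLR3F, POLR3G, NHP2, NIP7, BOP1, NOP16, UTP23 and NOL3. Since the strand setting of the counting was not known, their counts are uncertain. In bulk RNA, fewer cells of a type and less RNA per cell cannot be told apart.

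**Figure D1:**
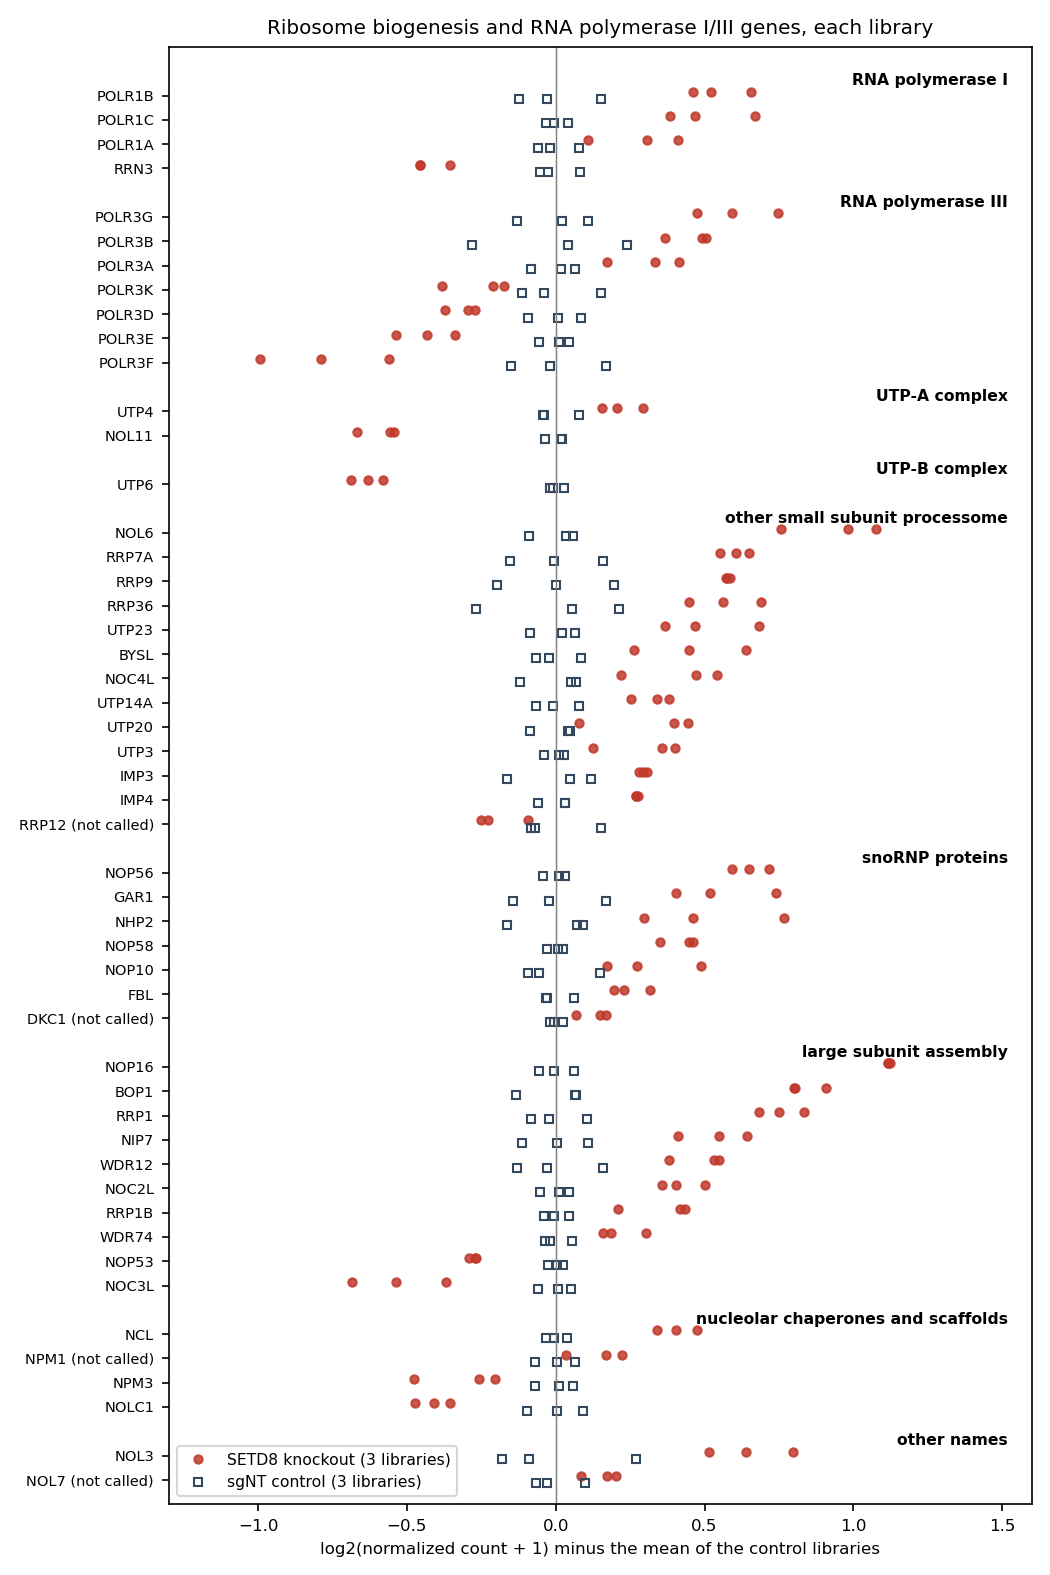
The tested members named in the text, in each library, as log2(normalised count + 1) minus the mean of the 3 control libraries (horizontal axis, log2 units), grouped by role. Red circles are the 3 SETD8 knockout libraries and open squares the 3 sgNT control libraries. Most red circles lie right of the squares, those of RRN3, NOL11, UTP6, NOC3L, NOP53, NPM3, NOLC1, RRP12 and 4 POLR3 genes lie left of them. The 4 members without a call, RRP12 among them, are marked as not called.

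Promoters of 42 of the 51 tested members could be matched by symbol in a RefSeq table of 250 bases before to 50 bases after each gene's start (GRCh38.p14). The canonical MYC-type E-box, CACGTG, which is its own reverse complement, occurred in 13 of these 42 windows (31.0%). Its share was 7.26% of 35116 windows in the whole RefSeq table and 11.2% of 5464 windows of tested protein-coding genes. Members of either direction had it: 10 of 30 matched members that were called higher, 2 of 9 called lower and 1 of 3 not called. The 5 stretches printed here are the 120 bases before the RefSeq start, 5′ to 3′ on the gene's strand. NOP16, the member that changed most, and NOP56, the member that stood furthest above lower neighbours, had no E-box, and NOP10, UTP20 and POLR3A carried one near the start, set in capitals. They lie at chr5:176388599-176388718 (minus strand), chr20:2652512-2652631 (plus), chr15:34343137-34343256 (minus), chr12:101279985-101280104 (plus) and chr10:78029516-78029635 (minus).
NOP16: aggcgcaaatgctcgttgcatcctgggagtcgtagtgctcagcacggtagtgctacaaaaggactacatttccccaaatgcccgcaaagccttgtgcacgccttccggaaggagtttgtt
NOP56: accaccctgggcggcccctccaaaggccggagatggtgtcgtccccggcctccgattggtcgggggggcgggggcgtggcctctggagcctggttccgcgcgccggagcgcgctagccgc
NOP10: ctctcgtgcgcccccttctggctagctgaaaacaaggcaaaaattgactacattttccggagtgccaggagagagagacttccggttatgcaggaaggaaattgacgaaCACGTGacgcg
UTP20: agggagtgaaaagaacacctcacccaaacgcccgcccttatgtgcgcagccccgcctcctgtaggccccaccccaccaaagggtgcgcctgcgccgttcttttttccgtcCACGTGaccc
POLR3A: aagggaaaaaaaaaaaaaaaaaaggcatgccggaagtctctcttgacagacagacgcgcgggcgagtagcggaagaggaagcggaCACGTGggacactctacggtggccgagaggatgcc
The deposited gene begins upstream of the RefSeq start for 4 of them, so that 120 of 120 bases lie inside it for NOP16 and NOP56, 41 for NOP10, 30 for POLR3A and 0 for UTP20. A match in these letters is a description and not evidence of binding. The 13 members with an E-box had log2 fold changes from -0.53 for NOC3L to 0.94 for NOL6.

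The RNA polymerase I genes moved in both directions: 3 subunit genes were higher and the initiation factor RRN3 was lower. Among all tested genes 47.3% were called higher and 46.7% lower, so a mix of directions is no mark of these 4 genes. POLR1B (ENSG00000125630, chromosome 2, 112541915 to 112577150) encodes the second-largest catalytic subunit. Its normalised counts were 1707, 1954 and 1779.9 in the knockout libraries, against 1137, 1215 and 1377 in the control libraries. All knockout libraries lay above all control libraries (log2 fold change 0.55, SE 0.08, limma-trend adjusted p = 3.34e-06). POLR1C (ENSG00000171453, chromosome 6, 43509702 to 43562419) encodes a subunit shared by RNA polymerases I and III. It had 657, 570.0 and 538 in knockout libraries and 403, 424 and 410.3 in control libraries. Again the groups were separate, with knockout library 1 highest (log2 fold change 0.51, SE 0.10, limma-trend adjusted p = 0.000236). POLR1A (ENSG00000068654, chromosome 2, 86020216 to 86106155) encodes the largest subunit, which holds most of the active site. Knockout libraries had 3226, 3702 and 3975, against 2867, 3157 and 2952 in control libraries. The lowest knockout library was only just above the highest control library (log2 fold change 0.28, SE 0.07, limma-trend adjusted p = 0.00237). RRN3 (ENSG00000085721, chromosome 16, 15060022 to 15094317) encodes the factor that joins RNA polymerase I to its promoter complex and is known as the growth-regulated step of its initiation. Its counts were 855, 918 and 856 in knockout libraries, against 1242, 1131 and 1152 in control libraries. RRN3 was lower in every knockout library (log2 fold change -0.42, SE 0.07, limma-trend adjusted p = 6.30e-05). The annotation places it across PDXDC1 on the opposite strand and lists 3 named RRN3 pseudogenes, so reads could have been split between them. Per kilobase of the deposited gene length, RRN3 was the most abundant of the 4 in control cells and below POLR1A and POLR1B in knockout cells. Levels in knockout cells were 287 for POLR1B, 269 for POLR1A, 211 for RRN3 and 106 for POLR1C. In control cells they were 283 for RRN3, 221 for POLR1A, 196 for POLR1B and 74.3 for POLR1C. The library ranges of POLR1A and POLR1B overlapped in both groups, so their order was not resolved. How the deposited gene length was worked out was not given, so any order between genes per kilobase is uncertain.

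RNA polymerase III genes divided evenly, with 4 of 8 tested subunits higher and 4 lower. Over all tested genes the shares were 47.3% higher and 46.7% lower, so an even division is no mark of these genes. POLR3G (ENSG00000113356, chromosome 5, 90471748 to 90514553) encodes the form of a subunit that is typical of proliferating and undifferentiated cells, its alternative being POLR3GL. It had 696, 625 and 576 in knockout libraries, against 421, 378 and 447 in control libraries. The lowest knockout library exceeded the highest control library by a wide margin (log2 fold change 0.60, SE 0.10, limma-trend adjusted p = 3.87e-05). POLR3B (ENSG00000013503, chromosome 12, 106357658 to 106510198) encodes the second-largest catalytic subunit. Normalised counts of 379, 383 and 348 in knockout libraries stood against 319, 222 and 277 in control libraries. Control library 2 was low, and although the groups did not overlap (log2 fold change 0.45, SE 0.13, limma-trend adjusted p = 0.00733), leaving that library out gave a log2 fold change of 0.31 and an adjusted p of 0.0736 by limma-trend. The largest subunit, POLR3A, was higher by 0.31 on the log2 scale (limma-trend adjusted p = 0.00136).

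The lower RNA polymerase III genes were POLR3F, POLR3E, POLR3D and POLR3K. POLR3F (ENSG00000132664, chromosome 20, 18467127 to 18484643) encodes part of the subcomplex that helps to open the promoter. It had 208, 178 and 154 in knockout libraries, against 304, 346 and 277 in control libraries. This was the largest fall of any member, 1.72-fold (log2 fold change -0.78, SE 0.14, limma-trend adjusted p = 0.000111). POLR3E (ENSG00000058600, chromosome 16, 22297375 to 22335103) and POLR3D (ENSG00000168495, chromosome 8, 22245104 to 22254600) encode partners in the subcomplex that acts in initiation and termination. POLR3E had 842, 783 and 899 in knockout libraries and 1147, 1174 and 1094 in control libraries. POLR3D had 1071, 1132 and 1151 in knockout libraries and 1302, 1395 and 1473 in control libraries. Both were lower without overlap, POLR3E with a log2 fold change of -0.44 (SE 0.08, limma-trend adjusted p = 6.14e-05) and POLR3D with -0.31 (SE 0.07, limma-trend adjusted p = 0.00101). POLR3K, a small subunit needed for transcript cleavage, was near the threshold (log2 fold change -0.26, limma-trend adjusted p = 0.0466). Its call was lost without knockout library 2 (adjusted p = 0.0752), knockout library 3 (0.217), control library 2 (0.31) or control library 3 (0.0812). Per kilobase, levels in knockout cells ran from 61.5 for POLR3F to 261 for POLR3K. In control cells they ran from 56.1 for POLR3B to 311 for POLR3K. This order between genes likewise rests on the deposited gene length.

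**Figure D2:**
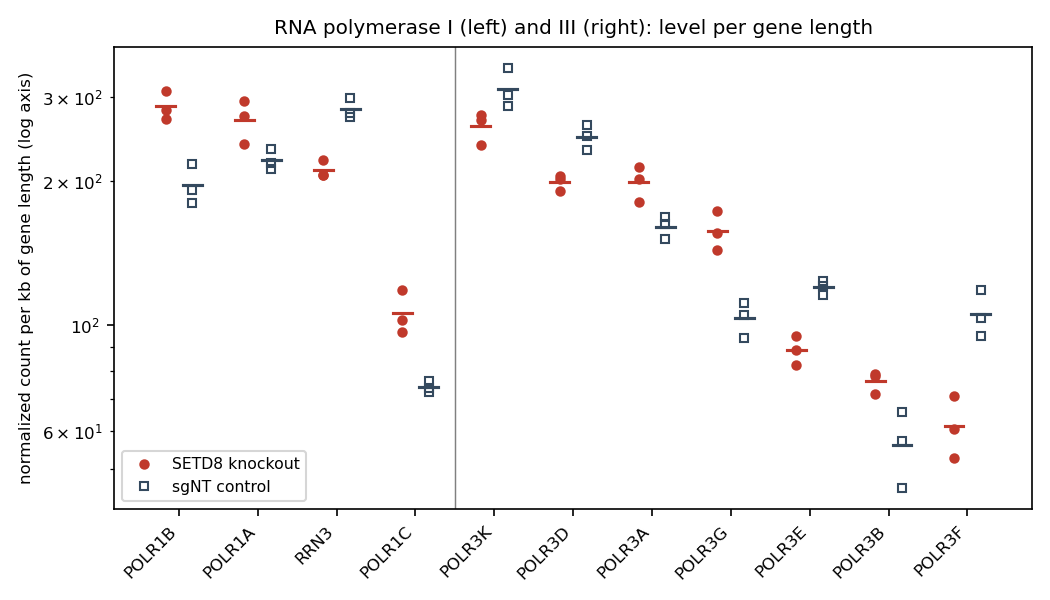
Level of the RNA polymerase I and III members named in the text as normalised count per kilobase of gene length (vertical axis), with the knockout libraries as red circles to the left of the control libraries as open squares for each gene. Points are libraries and short horizontal lines the mean of 3, on a log axis. RRN3, POLR3F, POLR3E, POLR3D and POLR3K are lower in knockout libraries and the other 6 genes shown are higher.

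Small subunit processome genes were mostly higher, and the members called lower, NOL11 and UTP6, belong to its UTP-A and UTP-B complexes. The UTP-A complex binds the nascent precursor first and, in human cells, is also linked to its transcription. NOL11 (ENSG00000130935, chromosome 17, 67717833 to 67744531) encodes a UTP-A protein found in animals. Its counts were 2021, 2039.5 and 1873 in knockout libraries, against 3011, 2898 and 3016 in control libraries. NOL11 was lower in every knockout library with little spread in either group (log2 fold change -0.59, SE 0.06, limma-trend adjusted p = 3.40e-08). Another UTP-A gene, UTP4 (ENSG00000141076, chromosome 16, 69131291 to 69231130), had 1930.3, 2051 and 1867 in knockout libraries and 1632, 1628 and 1769.9 in control libraries. UTP4 was slightly higher (log2 fold change 0.22, SE 0.06, limma-trend adjusted p = 0.00951), and the call was lost without knockout library 2 (adjusted p = 0.0795) or control library 2 (0.0523). For UTP-B, the member tested was UTP6 (ENSG00000108651, chromosome 17, 31860899 to 31901765). It had 1173, 1215 and 1126 in knockout libraries, against 1793, 1851 and 1803 in control libraries. UTP6 was 1.55-fold lower (log2 fold change -0.63, SE 0.06, limma-trend adjusted p = 4.08e-08).

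Of the 13 other processome genes, 12 were called higher and RRP12 was not called, where 47.3% of all tested genes were called higher. NOL6 (ENSG00000165271, chromosome 9, 33461441 to 33473930) and RRP7A (ENSG00000189306, chromosome 22, 42509968 to 42519802) have yeast counterparts that act together in the UTP-C complex. NOL6 had 1475, 1839.9 and 1727 in knockout libraries and 894, 908 and 819.5 in control libraries. It was 1.92-fold higher (log2 fold change 0.94, SE 0.08, limma-trend adjusted p = 2.60e-09). RRP7A had 1619.7, 1678 and 1733 in knockout libraries and 1231, 1099 and 993 in control libraries, and was also higher throughout (log2 fold change 0.60, SE 0.08, limma-trend adjusted p = 8.67e-07). Its pseudogene RRP7BP lies nearby, had 461, 522 and 474 in knockout libraries and 354, 292 and 296 in control libraries, and changed by a similar log2 0.63, so the reads of the pair may be shared. RRP9 (ENSG00000114767, chromosome 3, 51933430 to 51941941) encodes the protein specific to the U3 snoRNP, which pairs with the precursor to set the small subunit's cleavage sites. RRP9 counts were 1046, 1038 and 1037 in knockout libraries, against 608, 697 and 798 in control libraries. The knockout libraries were nearly equal and all above the controls (log2 fold change 0.58, SE 0.09, limma-trend adjusted p = 1.32e-05).

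The other 9 higher genes of this group ran from log2 0.57 for RRP36 to 0.27 for IMP4. Between them lay UTP23 (0.51), BYSL (0.45), needed late in small subunit maturation, and NOC4L (0.41), the partner of NOP14. UTP14A (0.32), which in yeast activates a helicase of the processome, UTP20 (0.31), UTP3 (0.29) and IMP3 (0.29) changed less. IMP3 and IMP4 belong to the complex that helps U3 pair with the precursor. Calls of 3 of these genes depended on single libraries. By limma-trend, the adjusted p of UTP20 was 0.072, 0.0718 and 0.0617 without knockout library 2, knockout library 3 and control library 1. That of UTP3 was 0.0665, 0.0691 and 0.0527 without knockout library 1, knockout library 2 and control library 3. That of IMP3 was 0.0832, 0.0586 and 0.15 without knockout library 2, knockout library 3 and control library 1. RRP12, which has a role in subunit export, had a log2 fold change of -0.19 (limma-trend adjusted p = 0.0574), and it was called lower without knockout library 3 (adjusted p = 0.025). It was also called lower under TMM scaling (0.0413), upper-quartile scaling (0.0139), edgeR (0.0494) and adjustment over tested genes (0.0217).

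All 7 snoRNP protein genes had higher values in every knockout library than in any control library, and 6 were called. Over all tested genes 48.0% were separate in this direction and 47.3% were called higher. NOP56 (ENSG00000101361, chromosome 20, 2652145 to 2658393) is a scaffold of the box C/D particles, which guide ribose methylation. Its counts were 5172, 4945 and 4751 in knockout libraries, against 3171, 3058 and 3221 in control libraries. NOP56 was 1.57-fold higher (log2 fold change 0.65, SE 0.06, limma-trend adjusted p = 2.85e-09). Its partners in the same particles changed less, with NOP58 at log2 0.42 and the methyltransferase FBL at 0.25. GAR1 (ENSG00000109534, chromosome 4, 109815510 to 109824740) and NHP2 (ENSG00000145912, chromosome 5, 178149460 to 178153967) belong to the box H/ACA particles, which guide pseudouridylation and also stabilise telomerase RNA. GAR1 had 920.3, 729.8 and 790.0 in knockout libraries and 619, 499 and 542 in control libraries. NHP2 had 1181, 953 and 852 in knockout libraries and 729, 738 and 618 in control libraries. Both were higher, GAR1 with a log2 fold change of 0.55 (SE 0.10, limma-trend adjusted p = 8.93e-05) and NHP2 with 0.51 (SE 0.10, limma-trend adjusted p = 0.000301). NOP10, the smallest protein of these particles, had a log2 fold change of 0.31, which was not called without knockout library 1 (limma-trend adjusted p = 0.101), control library 1 (0.0567) or control library 3 (0.0776). DKC1, the pseudouridine synthase of the same particles, had 4572, 4635 and 4314 in knockout libraries and 4192, 4063 and 4106 in control libraries. Its difference was small and not called (log2 fold change 0.13, SE 0.05, limma-trend adjusted p = 0.0747). By limma-trend it was called without knockout library 3 (adjusted p = 0.0293) and with adjustment over tested genes (0.0283). Of the members, 7 have snoRNA genes inside them, 17 in all, with 5 in NOP56 and 4 in NOP58.

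Large subunit assembly genes were higher for 8 of 10 members, against 47.3% of all tested genes, and included the member that changed most. NOP16 (ENSG00000048162, chromosome 5, 176383938 to 176388975) is a nucleolar protein of early large subunit particles. It had 850.5, 846 and 847 in knockout libraries, against 375, 406 and 388 in control libraries. NOP16 was 2.17-fold higher with almost no spread between knockout libraries (log2 fold change 1.12, SE 0.09, limma-trend adjusted p = 6.05e-10). BOP1 (ENSG00000261236, chromosome 8, 144262102 to 144291370) forms, with PES1 and WDR12, the complex needed to process the large subunit's RNA. Its counts were 6437, 6936 and 6457 in knockout libraries and 3371, 3871 and 3877 in control libraries. BOP1 was 1.79-fold higher (log2 fold change 0.84, SE 0.06, limma-trend adjusted p = 2.49e-10), and WDR12 rose by 0.49 on the log2 scale. RRP1 (ENSG00000160214, chromosome 21, 43789513 to 43805293) acts in processing of the large subunit precursor. RRP1 had 1192, 1326 and 1249 in knockout libraries, against 701, 799 and 731 in control libraries. It was 1.69-fold higher (log2 fold change 0.76, SE 0.08, limma-trend adjusted p = 4.20e-08), and its paralogue RRP1B, whose gene lies 0.120 Mb away, rose by 0.35. NIP7 (0.53), NOC2L (0.42) and WDR74 (0.22) were also higher, the last of these not called without knockout library 1, control library 1 or control library 2 (limma-trend adjusted p = 0.0931, 0.0634 and 0.0686).

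The exceptions among large subunit genes were NOC3L and NOP53. NOC3L (ENSG00000173145, chromosome 10, 94333226 to 94362959) forms, in yeast, a complex with NOC2 that accompanies maturing particles through the nucleus. It had 532, 597 and 479 in knockout libraries and 776, 799 and 739 in control libraries. NOC3L was lower (log2 fold change -0.53, SE 0.09, limma-trend adjusted p = 6.32e-05) while its partner NOC2L was higher. NOP53 (ENSG00000105373, chromosome 19, 47745522 to 47757058) brings, in yeast, the exosome to late large subunit precursors. Its counts were 5518, 5597 and 5611 in knockout libraries, against 6778, 6629 and 6864 in control libraries. The fall was small but tight in both groups (log2 fold change -0.28, SE 0.05, limma-trend adjusted p = 0.000167). NOP2, a methyltransferase of large subunit RNA, was the untested member. It had normalised counts of 4.17, 13.9 and 24.3 in knockout libraries and 4.09, 4.86 and 2.97 in control libraries, that is 4, 14 and 26 reads against 4, 5 and 3, too few and too uneven for a statement on direction.

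The 4 nucleolar chaperones and scaffolds did not move together. NCL (ENSG00000115053, chromosome 2, 231453531 to 231483641), nucleolin, is an abundant nucleolar RNA-binding protein that also acts in RNA polymerase I transcription. Its counts were 16302, 15511 and 14852 in knockout libraries, against 12039, 11445 and 11682 in control libraries. NCL was higher in every knockout library (log2 fold change 0.41, SE 0.06, limma-trend adjusted p = 3.65e-06). NOLC1 (ENSG00000166197, chromosome 10, 102152176 to 102163871) is a snoRNP chaperone. NOLC1 had 1655, 1718 and 1583 in knockout libraries and 2343, 2056 and 2202 in control libraries, and was lower (log2 fold change -0.41, SE 0.06, limma-trend adjusted p = 1.95e-05). NPM3 (ENSG00000107833, chromosome 10, 101781325 to 101783413) belongs to the nucleoplasmin family of histone chaperones. NPM3 had 1159, 1118 and 959 in knockout libraries and 1389, 1347 and 1273 in control libraries, and was likewise lower (log2 fold change -0.31, SE 0.08, limma-trend adjusted p = 0.00225). NPM1, its larger relative and the most abundant member, had 26338, 27342 and 23975 in knockout libraries and 24498, 22282 and 23483 in control libraries. Its groups overlapped (log2 fold change 0.14, SE 0.06, limma-trend adjusted p = 0.0957). By limma-trend NPM1 was called higher without knockout library 3 (adjusted p = 0.0109) and with adjustment over tested genes (0.0362). It was also called higher by DESeq2 on the recovered reads (adjusted p = 0.0429), and the authors' deposited adjusted p-value was 0.0349. The 45 named NPM1 pseudogenes in the annotation make its count uncertain. The remaining names have other or less defined roles. NOL3 (ENSG00000140939, chromosome 16, 67170154 to 67175735) is a repressor of apoptosis. It had 66.7, 81.4 and 72.8 in knockout libraries and 56.2, 40.8 and 43.6 in control libraries. It was called higher (log2 fold change 0.65, SE 0.24, limma-trend adjusted p = 0.0406), but not without knockout library 2 (adjusted p = 0.158), knockout library 3 (0.0899), control library 2 (0.136) or control library 3 (0.102). NOL7 had a log2 fold change of 0.15 (limma-trend adjusted p = 0.0619), called without control library 1 (adjusted p = 0.0218) and with adjustment over tested genes (0.0234).

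MYC transcript did not follow the higher members. MYC (ENSG00000136997, chromosome 8, 127735434 to 127741434) had 9939, 9456 and 9343 in knockout libraries, against 9908, 10747 and 10768 in control libraries. Knockout library 1 lay above control library 1, so the groups overlapped (log2 fold change -0.13, SE 0.06, limma-trend adjusted p = 0.0863). The small negative difference was called under TMM scaling (log2 fold change -0.14, adjusted p = 0.0428) and upper-quartile scaling (-0.18, adjusted p = 0.00979). It was also called by limma-trend without knockout library 1 (adjusted p = 0.0366) or control library 1 (0.0357). Its sign was negative under all 20 alternatives to the test, whose adjusted p ran from 3.05e-08, with length and neighbour trends removed, to 0.358, without control library 3. In the authors' deposited table its adjusted p-value was 0.0437. MYC acts as a dimer with MAX, and the MXD proteins and MXI1 compete with it for MAX and repress the same sites. Of 12 genes written for this network, 7 were tested: 4 were called lower and 2 higher. Over all tested genes 46.7% were called lower, 47.3% higher and 94.1% in either direction, so these counts are no mark of the network. MXI1 had 828, 745 and 782 in knockout libraries, against 2162, 2219 and 2342 in control libraries. MXD1 had 539.9, 574 and 571 in knockout libraries, against 1537, 1577 and 1465 in control libraries. Both repressor transcripts were lower in every knockout library by more than any member changed, MXI1 with a log2 fold change of -1.51 (SE 0.07, limma-trend adjusted p = 7.36e-14) and MXD1 with -1.44 (SE 0.07, limma-trend adjusted p = 6.64e-13). The 23 tested genes around MXI1 were all below 0 (median -0.83), and relative to them MXI1 was at -0.69 on the log2 scale, while MXD1 was at -1.08 on that scale. MXD4 (-0.28) and MLX (-0.45), a MAX-like partner protein, were lower, and MLXIP (0.38) and MGA (0.22) were higher. The libraries of MGA overlapped between groups and its call was lost without knockout library 3 (limma-trend adjusted p = 0.283), control library 2 (0.0763) or control library 3 (0.141) and under upper-quartile scaling (0.121). The call of MXD4 was lost without knockout library 1 (adjusted p = 0.112) or control library 2 (0.0876).

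Genes of the same pathway that the naming rule did not take were also called higher more often than lower. Of 119 such genes, 76 were in the table and tested, of which 50 were higher, 23 lower and 3 not called, with a median log2 fold change of 0.34. Over all tested genes 47.3% were called higher, 46.7% lower and 94.1% in either direction, with a median of 0.14. Other RNA polymerase I genes again divided, with 3 higher and 2 lower. The subunit CD3EAP (0.84) and TAF1C (0.52) were higher, and TAF1D (-0.58), which shares the promoter selectivity complex with TAF1C, and the termination factor TTF1 (-0.26) were lower. TTF1 was at the threshold (limma-trend adjusted p = 0.0487) and lost its call without any 1 of knockout libraries 2 and 3 and the 3 control libraries (adjusted p from 0.0694 to 0.192). Other RNA polymerase III genes numbered 6 higher and 5 lower, not far from the shares over all tested genes. They included GTF3C6 (0.85) and SNAPC5 (0.64) on the higher side and GTF3C5 (-0.68) and SNAPC3 (-0.42) on the lower side, so both the promoter-binding complex TFIIIC and the snRNA-activating complex held genes of either direction.

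Assembly factors outside the rule were mostly higher, where 47.3% of all tested genes were called higher and 46.7% lower. For the small subunit 13 of 18 were higher and 4 lower, led by DCAF13 (0.89) and the box C/D core protein SNU13 (0.73) on one side and by AATF (-0.47) and ESF1 (-0.43) on the other. For the large subunit 24 of 33 were higher and 8 lower. EBNA1BP2 (1.02) and MRTO4 (0.92), both factors of early large subunit particles, changed most on the higher side. RSL1D1 (-0.66) and EFL1 (-0.50), the GTPase that releases EIF6 from the new subunit, changed most on the lower side. Genes of the exosome and of 5′ exonucleases, which trim the precursors, were balanced at 4 higher and 4 lower of 9, near the shares over all tested genes. Among them EXOSC7 (0.47) and EXOSC6 (0.46) were higher, while EXOSC1 (-0.86) and XRN2 (-0.51) were lower.

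**Figure D3:**
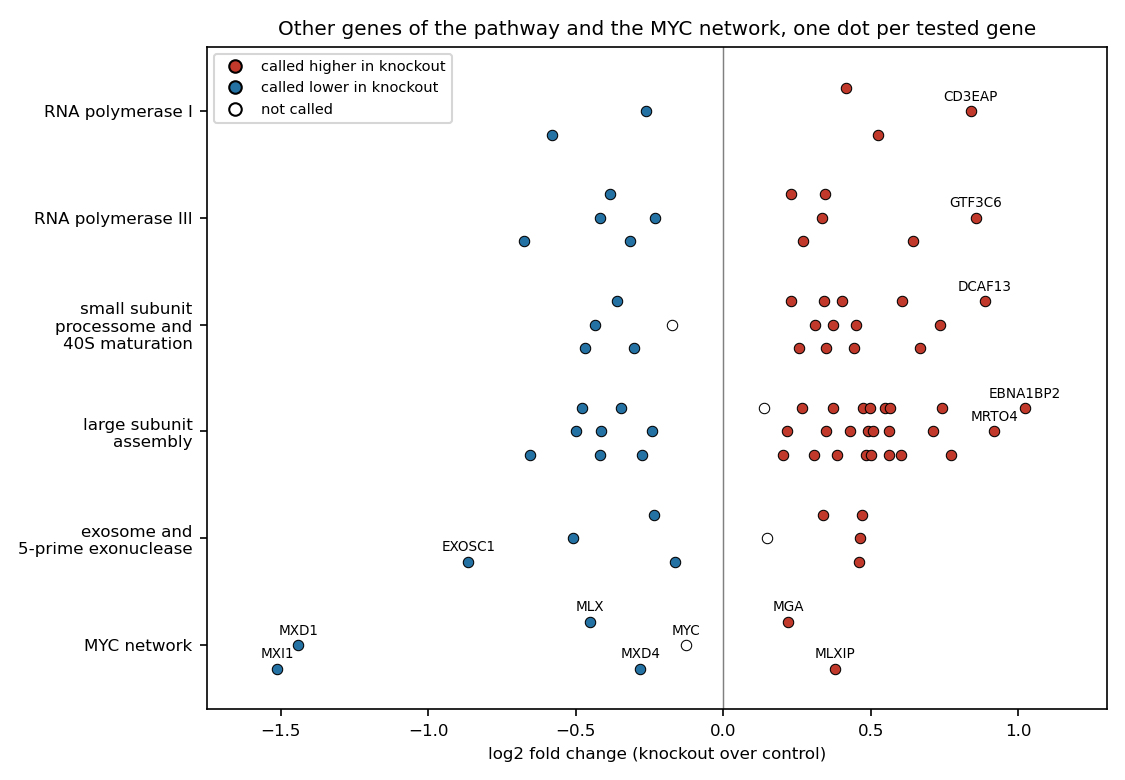
Log2 fold change, knockout over control (horizontal axis), of pathway genes outside the naming rule and of the MYC network (rows), with 1 dot per tested gene. Red dots were called higher, blue dots lower and open dots not called. EBNA1BP2 lies furthest right at 1.02, and MXI1 and MXD1 furthest left at -1.51 and -1.44.

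The direction of many members matched that of the genes around them. For each gene the median log2 fold change of the other tested genes within 5 Mb was taken. The median had the gene's own sign for 39 of 51 members (76.5%), against 64.6% of the 7404 other tested genes with at least 5 neighbours. It was below 0 for 9 of the 11 members that were called lower, POLR3D and NOP53 being the exceptions. Among the 36 called higher it was above 0 for 26. By chromosome, in a grouping chosen after the values were seen, chromosomes 10, 16, 17 and 20 held 15 members, 9 called lower and 5 higher. Of 1429 other tested genes there, 68.4% were lower and 26.7% higher. On the remaining chromosomes 31 of 36 members were higher (86.1%) and 2 lower, against 52.0% higher and 41.8% lower of 6036 other tested genes. Direction did not follow the chromosome everywhere. On chromosome 9, 74.3% of other tested genes were lower, more than on any of those 4, and its member NOL6 was higher. Chromosomes 2, 3 and 4 also held more lower than higher genes, and all 9 of their members were higher. All 6 pairs of members within 1 Mb of each other, among them NOLC1 with NPM3 and RRP1 with RRP1B, changed in the same direction. NOLC1 with NPM3 was the only lower pair. Most members were higher and no share was worked out for other pairs of genes, so this agreement is no mark of closeness.

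Some members stood against their surroundings. NOP56 was higher on chromosome 20, where 9 of its 37 neighbours had values above 0 and their median was -0.42. POLR1B (-0.30), GAR1 (-0.29), WDR12 (-0.32) and POLR3G (-0.23) likewise had neighbour medians below 0 while being higher themselves. In the other direction POLR3D was lower although 18 of its 22 neighbours were above 0 (median 0.54). RRN3 was lower among neighbours of which 0 of 31 were above 0, and its fall of 0.42 was smaller than their median (-0.70). BOP1 was higher in a stretch of chromosome 8 where 54 of 62 neighbours were above 0 (median 0.65).

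**Figure D4:**
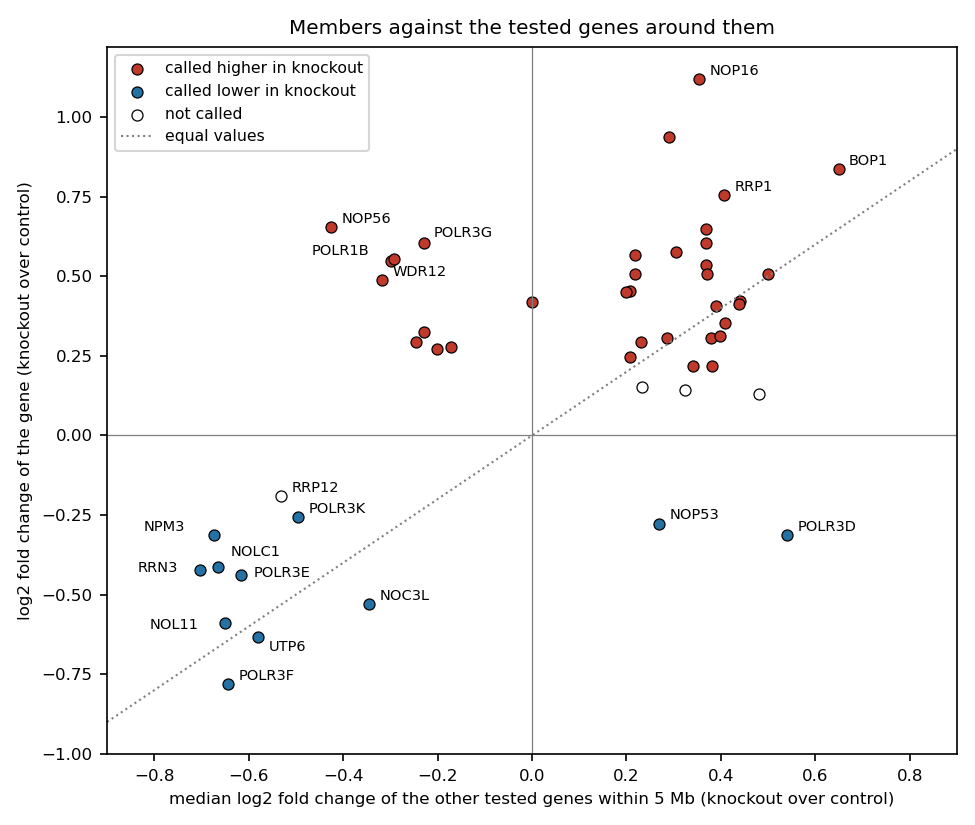
Log2 fold change of the tested members named in the text (vertical axis, knockout over control) against the median log2 fold change of the other tested genes within 5 Mb (horizontal axis). Red members were called higher, blue lower and open circles not called, and the dotted line marks equal values. Of the 11 members called lower, 9 lie at the lower left, and POLR3D and NOP53 lie at the lower right.

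When each gene's value was taken relative to that local median, 19 of the 36 higher members kept their call, 10 kept the sign without a call and 7 changed sign without a call. Shares over all tested genes on this scale were not worked out, so calls kept or lost are no mark of the members. NOP56 (1.08), POLR1B (0.85), POLR3G (0.83), WDR12 (0.81) and NOP16 (0.77) stayed clearly higher on this relative log2 scale. Of the 11 lower members 2 kept their call, POLR3D (-0.85) and NOP53 (-0.55). RRN3 (0.28), NOLC1 (0.25) and NPM3 (0.36) were called higher relative to their neighbours (limma-trend adjusted p = 0.00282, 0.00335 and 0.000511), the opposite of their direct comparison, in which all 3 were lower. The remaining 6 lower members were not called on this scale. Of the members without a direct call, DKC1 (-0.35, limma-trend adjusted p = 2.32e-05) and NPM1 (-0.18, 0.04) were called lower relative to their neighbours and RRP12 (0.34, 0.00094) higher. The local median was subtracted as a fixed value, so these adjusted p-values leave out its error and the spread among the neighbours. Neighbours were listed genes only, so genes that changed little may be missing from that median. Gene length was no larger in the members, with a median of 4203 bases against 5086 over all tested genes, and removing a trend with length left the calls of 31 of 36 higher and 11 of 11 lower members in place.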

How the data were processed

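Polyadenylated RNA of 6 Kasumi-1 libraries was selected with poly-T beads and made into directional libraries, per the labels' protocols. Per the submitters' processing notes, the tools included HISAT2 and DESeq2 and the build was hg38. Not given in the sources used here were versions, the gene counter and its strand setting. The authors deposited, per the file headers, a normalised count (a signal: reads divided by a size factor) per gene and library. For each listed gene the authors also deposited a log2 fold change with nominal and adjusted p-values, the nominal one being 0.049998 or less.

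Reads could be recovered from these values: dividing by the worth of 1 read gave whole numbers, within 0.001, for 100% of values in each library, less surely in knockout library 2 and control library 3, where 1 read was worth 0.993 and 0.991. Depth in listed genes was 10966349 to 12557974 reads, and the total depth was not known. Within a group, counts differed between libraries beyond counting noise (chi-square per degree of freedom 3.84 to 12.0), so no library looked like a copy of another, which does not show that they were separate cultures. No sample column of the table was left unused.

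Genes with a mean of at least 10 (7516 genes, 467 left out) were tested in one fit with limma-trend in limma 3.58.1 under R 4.3.3, on log2(value + 1), which understates changes of low genes, two-sided, without a replicate block. Benjamini-Hochberg adjustment assumed 19860 genes, the number the authors' adjustment covered, and calls were made at adjusted p below 0.05. The spread that limma pools comes from genes already selected for a difference. Alternatives were count tests on the recovered reads (edgeR 4.0.16 quasi-likelihood, DESeq2 1.42.0), upper-quartile and TMM scaling, other filters and pseudocounts, a replicate block, leaving out each library, adjustment over tested genes, and removal of trends (local regression, span 0.5) with gene length and of the median of tested genes within 5 Mb. Each trend was subtracted from the knockout values as a fixed value, so p-values after its removal leave out its error. Figures were drawn with matplotlib 3.10.9.

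Members and gene lists were chosen with earlier results of these data known, so no list is tested. Per-library values are given for MYC, KMT5A and, in each role, up to 3 members called higher and up to 3 called lower by size of change, with a minimum mean of 50, and for other members singled out by a count after their values were seen. Of each other pathway list up to 2 genes per direction are named, and all tested genes of the MYC network. Results on 1 member are counted in the totals but not reported here by name.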

Additional observations from a re-analysis of the deposited data

How the results depend on the processing

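Counts of called members and of other pathway genes, in each direction, stayed within 1.5 times of the values above under TMM scaling, upper-quartile scaling, DESeq2, edgeR, the other filters and pseudocounts, adjustment over tested genes, protein-coding genes alone and removal of the length trend. Leaving out 1 library at a time gave 31 to 35 members higher, 10 to 11 lower and a member median of 0.31 to 0.37, with 45 to 49 other pathway genes higher and 17 to 22 lower. The labels' replicate numbers did not pair the libraries (correlation of deviations between same-numbered libraries 0.0086, -0.0033 and -0.050). With a replicate block, 35 members were higher and 12 lower (median 0.32), as were 50 and 22 other pathway genes. The block ended the call of NOL3 (limma-trend adjusted p = 0.0525) and added one for RRP12 (0.0338). Upper-quartile scaling moved the member median to 0.27, and the median of all tested genes from 0.136 to 0.0816. Counting only limma-trend calls with a log2 change of 1 or more in size left 1 member and 1 other gene higher and 0 of either lower, since no lower one reached that size.

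No named gene changed sign under the scalings, tools, filters, block or left-out libraries. Relative to the median of genes within 5 Mb, 23 members were higher and 4 lower with a median of 0.23, and 32 other pathway genes were higher and 12 lower. With the length trend also removed, 19 members were higher and 6 lower with a median of 0.15, and 12 other genes were lower. Shares over all tested genes after removal of these trends were not worked out. Log2 values that changed sign relative to neighbours were NOL11 0.062, NOC2L -0.019, NOLC1 0.25, RRN3 0.28, POLR3E 0.18, RRP1B -0.055, POLR3A -0.073, NOC4L -0.027, NPM3 0.36, UTP4 -0.16, NOP10 -0.087, WDR74 -0.12, NPM1 -0.18, DKC1 -0.35, NOL7 -0.081, POLR3K 0.24, RRP12 0.34, TTF1 0.18, AATF 0.0048, ESF1 0.29, RSL1D1 0.054, XRN2 0.071, MLX 0.073 and MGA -0.36. With length removed too, those that changed sign were NOC2L -0.012, NOLC1 0.27, RRN3 0.15, POLR3E 0.28, RRP1B -0.081, FBL -0.043, NHP2 -0.0037, NOC4L -0.21, NPM3 0.23, UTP4 -0.20, UTP3 -0.18, NOP10 -0.26, WDR74 -0.14, NPM1 -0.16, DKC1 -0.44, NOL7 -0.19, POLR3K 0.10, RRP12 0.49, TTF1 0.10, SNAPC5 -0.018, ESF1 0.25, RSL1D1 0.016, XRN2 0.046, MLX 0.034 and MGA -0.023. The cause was not tested. The depth of single libraries limits NOL3 and NOP2, which had the lowest counts, and other genes' absence from the table limits every share given.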
